A study of Mus musculus with 24 samples.

Results

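Amino acid transporters of the solute carrier families Slc1a, Slc3a, Slc6a, Slc7a, Slc36a, Slc38a and Slc43a were examined in mouse hearts. Every probe set annotated to exactly 1 gene symbol of these families, the prefix followed by a number, was taken. This gave 121 probe sets of 60 genes, of 45037 probe sets tested and 18193 genes with a symbol of their own. Slc6a20a and Slc6a20b were counted, and antisense-type symbols ending in os were not. The Slc6a family had 20 genes, Slc7a 15, Slc38a 9, Slc1a 7, Slc36a 4, Slc43a 3 and Slc3a 2. Some Slc6a members carry other molecules, such as noradrenaline, and were kept because the rule is by family.

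RNA of whole hearts taken at 90 days of age was hybridised to Affymetrix arrays, 24 in all, with 6 biological replicates for each of 4 genotypes. ARG hearts carried a transgene for the human beta1-Arg389 form of the beta1-adrenergic receptor, and GLY hearts one for the human beta1-Gly389 form. AC5 hearts carried a human AC5 transgene, the usual name of an adenylyl cyclase, the enzyme that makes cyclic AMP. NTG hearts were non-transgenic. In the 3 transgenic genotypes the alpha-myosin heavy chain promoter drives the transgene in cardiac myocytes, so other cells of the heart do not carry the added protein by design. The labels do not say how many founder lines or which strain were used.

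Amino acid transporters set how much amino acid a cell can take up, give out or exchange. Slc7 light chains such as Slc7a5 work as pairs with the heavy chain Slc3a2 and exchange large neutral amino acids, leucine among them, for glutamine, which sodium-coupled carriers such as Slc38a1, Slc38a2 and Slc1a5 bring in. Leucine activates the growth regulator mTORC1, and a shortage of amino acids raises the transcription factor ATF4, which is known in other cells to induce several of these transporters. In heart muscle, Slc6a6 supplies taurine and Slc6a8 creatine.

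The deposited value is a ratio that centres near 1 in NTG hearts, so it shows a change and not how abundant a transcript is. Members' ratios ran between 0.263 and 5.3. Dim and bright probe sets cannot be told apart, and the tissue label could not be checked against the level of heart muscle genes for the same reason. The mean SD between replicates over the 121 probe sets was 0.20 in ARG, 0.21 in GLY, 0.17 in AC5 and 0.15 in NTG on the log2 scale. Changes below are differences of mean log2 ratio ± SE from limma over all 24 arrays, and rose, fell or called mean a Benjamini-Hochberg adjusted p under 0.05 over all 45037 probe sets. Comparisons against NTG share the same 6 NTG hearts. Overlap between hearts is described for probe sets called on these same hearts, so it is no further test. The share of all probe sets without overlap was not counted. The labels name no batch, but earlier results of these data showed replicates 1 to 3 and replicates 4 to 6 behaving as a pair of sets, and values within each are given for the called probe sets and, as medians, for 3 of the gene lists.

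In ARG hearts, 9 of the 60 transporter genes rose and 1 fell against NTG. The genes that rose were Slc7a5, Slc3a2, Slc1a1, Slc38a2, Slc6a6, Slc38a1, Slc7a1, Slc1a2 and Slc6a9, and Slc36a2 fell. In probe sets, 10 of 121 rose (8.26%) and 1 fell (0.826%), where 4.04% of all probe sets rose and 5.63% fell. The share that rose was above the background and the share that fell below it, given as counts with no test of the list. The median change of the 121 probe sets was 0.04, beside 0.0042 over all probe sets. Without NTG replicate 3, NTG replicate 6 or ARG replicate 4 the count of calls was 7, and quantile normalization gave 5.

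In GLY hearts 1 member rose, Slc1a2, and 0 fell, against background shares of 1.55% and 3.53%. The share of 0.826% that rose lay below the background. In AC5 hearts 1 member rose, Slc7a5, and 0 fell, against background shares of 0.0688% and 0.0733%. Only 64 probe sets were called in AC5 over the whole array, so this single call is 0.826% of the members. At an unadjusted p under 0.05, 15 member probe sets were higher and 1 lower in ARG, 15 higher and 6 lower in GLY, and 7 higher and 1 lower in AC5. Both directions together made 13.2% of members in ARG, 17.4% in GLY and 6.61% in AC5. Over all probe sets the shares were 20.2%, 19% and 7.26%, so the members' shares lay below the background in each. Median member changes were 0.06 in GLY and 0.02 in AC5, beside 0.03 and -0.0012 over all probe sets. The GLY count of 1 was 3 without NTG replicate 4, 2 without GLY replicate 2 and 4 without GLY replicate 6.

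**Figure D1:**
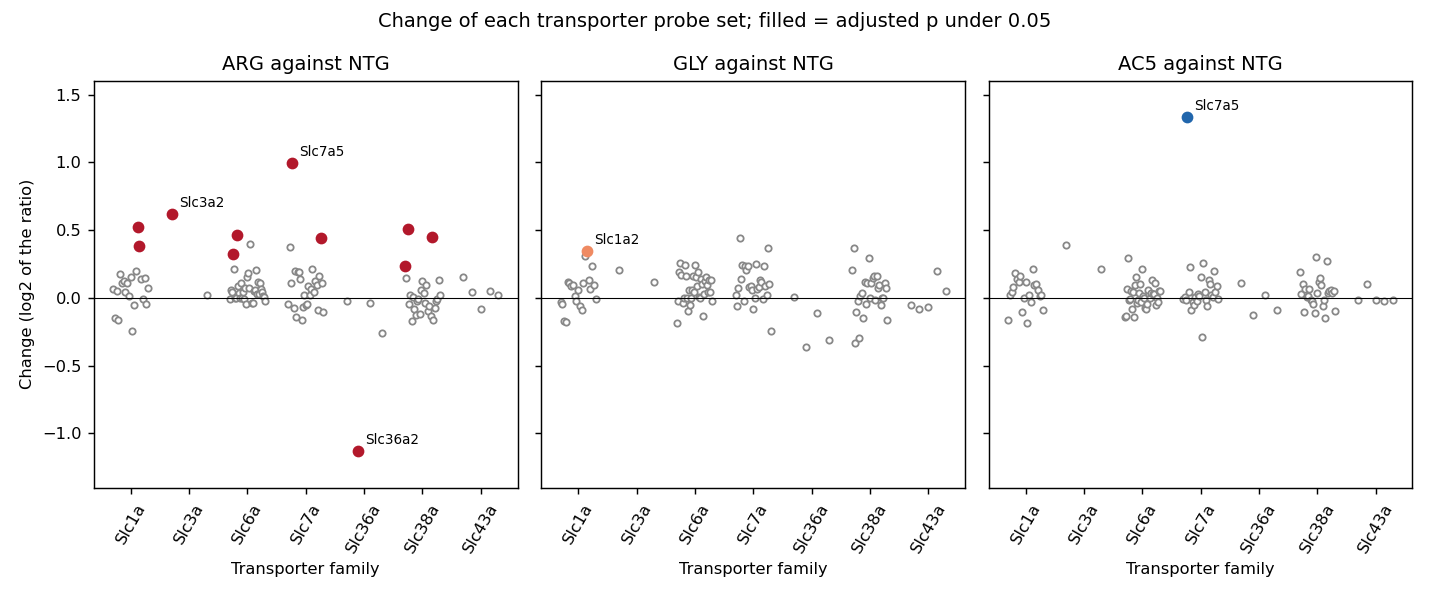
Change of each of the 121 transporter probe sets on the log2 scale (vertical axis) by family (horizontal axis) in ARG, GLY and AC5 hearts against NTG. Each point is 1 probe set, filled where the limma adjusted p was under 0.05; the ARG panel has 10 filled points above 0 and 1 below, and the GLY and AC5 panels have 1 each.

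The starting regions of 3 of the genes that rose in ARG hearts, Slc3a2, Slc38a2 and Slc7a1, are shown as examples. No window was available for Slc7a5, Slc36a2, Slc38a1 or Slc6a6. Sequences are RefSeq promoter windows of build GRCm38.p6, 250 bases before to 50 after the start of the gene, written 5′ to 3′ on the strand of the gene. Capitals mark TGACG or its reverse complement, the repeated unit of a cyclic AMP response element. The windows are chr19:8713848-8714147 (minus strand) for Slc3a2, chr15:96699679-96699978 (minus strand) for Slc38a2 and chr5:148399855-148400154 (minus strand) for Slc7a1, the first of 2 windows listed for that gene.
Slc3a2: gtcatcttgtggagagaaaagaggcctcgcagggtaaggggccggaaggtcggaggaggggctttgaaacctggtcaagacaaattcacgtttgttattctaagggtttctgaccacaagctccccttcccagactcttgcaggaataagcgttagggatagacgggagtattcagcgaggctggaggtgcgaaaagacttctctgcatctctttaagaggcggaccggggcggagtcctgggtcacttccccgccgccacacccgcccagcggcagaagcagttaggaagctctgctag
Slc38a2: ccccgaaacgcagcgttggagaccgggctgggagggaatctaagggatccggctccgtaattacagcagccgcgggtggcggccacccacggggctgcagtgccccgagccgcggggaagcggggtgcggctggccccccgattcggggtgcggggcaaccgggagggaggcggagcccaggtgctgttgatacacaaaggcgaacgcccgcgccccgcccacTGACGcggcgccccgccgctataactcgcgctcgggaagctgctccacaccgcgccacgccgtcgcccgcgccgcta
Slc7a1: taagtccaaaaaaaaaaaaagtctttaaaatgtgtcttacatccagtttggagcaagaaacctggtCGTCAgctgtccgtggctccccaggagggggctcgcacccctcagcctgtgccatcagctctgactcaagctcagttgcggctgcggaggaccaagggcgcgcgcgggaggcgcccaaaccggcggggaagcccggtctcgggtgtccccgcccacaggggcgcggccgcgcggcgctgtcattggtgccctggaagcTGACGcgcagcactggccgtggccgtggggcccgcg

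With the start site as position 0, Slc38a2 held TGACG at -27 on the gene's strand. Slc7a1 held it in the window shown, at 14 on that strand and at -184 on the other strand, while its other window held none. Slc3a2 held none in its window. Member windows on chromosome 18, which holds Slc6a7, were left out, while the count over all windows made no such exclusion. Windows were counted for 43 member genes (64 windows), among them Slc1a1, Slc1a2, Slc3a2, Slc38a2, Slc6a9 and Slc7a1 of the genes called in ARG (9 windows). TGACG, on either strand, was in 3 of these 9 windows, in 17 of 64 member windows (26.6%) and in 20.8% of all 32851 windows. The full element TGACGTCA, which contains TGACG, was in 0 of the 9, in 1 of the 64, that of Slc38a6, and in 1.79% of all. The core of the amino acid response element bound by ATF4, TGATGNAA, was in 0 of the 9 and in 5 of the 64 member windows (7.81%), those of Slc1a4, Slc6a21, Slc7a7 and Slc7a11, and in 3.97% of all. These counts describe letters in short windows and say nothing of binding, and such elements can lie elsewhere in a gene.

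The pair formed by the light chain Slc7a5 (LAT1) and the heavy chain Slc3a2 (4F2hc) held the largest rises of the families in ARG hearts, and Slc7a5 was the single member that rose in AC5 hearts. Slc7a5 (probe set 1418326_at) had ratios with a lowest, median and highest value of 1.38, 1.76 and 3.13 in ARG hearts, against 0.652, 1.00 and 1.26 in NTG hearts. In AC5 hearts they were 1.55, 2.20 and 5.30, and in GLY hearts 0.923, 1.31 and 1.65. Every ARG and every AC5 heart lay above every NTG heart, while GLY hearts overlapped NTG. Slc7a5 rose by 0.99 ± 0.23 in ARG (1.99-fold, limma adjusted p = 0.00522) and by 1.33 ± 0.23 in AC5 (2.52-fold, adjusted p = 0.0104). In GLY its change was 0.44 ± 0.23 (adjusted p = 0.312). ARG and AC5 were not told apart at this probe set (ARG against AC5 -0.34 ± 0.23, adjusted p = 0.583), nor were ARG and GLY (0.55 ± 0.23, adjusted p = 0.288). Within replicates 1 to 3 and 4 to 6 the change of Slc7a5 was 0.74 and 1.24 in ARG and 1.07 and 1.59 in AC5. Its adjusted p was 0.0713 in ARG within replicates 1 to 3, and in AC5 0.126 and 0.413 within the sets of 3 hearts.

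Slc3a2 (1425364_a_at) had ratios of 1.24, 1.53 and 2.12 in ARG hearts, against 0.931, 1.05 and 1.08 in NTG hearts. GLY hearts had 0.834, 1.17 and 1.77, and AC5 hearts 1.01, 1.26 and 2.38. The ARG values did not overlap NTG, and the highest AC5 value, replicate 5, was also the highest AC5 value of Slc7a5. Slc3a2 rose by 0.62 ± 0.17 in ARG (1.53-fold, limma adjusted p = 0.0163). It was not called in AC5 (0.39 ± 0.17, adjusted p = 0.592) or in GLY (0.20 ± 0.17, adjusted p = 0.568). The ARG call was lost with quantile normalization (0.42, adjusted p = 0.0672) and within each set of 3 hearts (0.58 and 0.65, adjusted p = 0.205 and 0.120). The other heavy chain, Slc3a1, which pairs with Slc7a9 in kidney and gut, changed by 0.02 in ARG and was not called.

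Other light chains did not pass the test. Slc7a8 (LAT2), which carries a broader set of neutral amino acids, changed by 0.11 ± 0.09 in ARG (limma adjusted p = 0.605). Slc7a11, the cystine and glutamate exchanger that feeds glutathione synthesis, changed by 0.20 ± 0.10 in ARG, 0.24 ± 0.10 in GLY and 0.22 ± 0.10 in AC5 (adjusted p = 0.273, 0.164 and 0.620). These 3 changes were close in size, and each missed the threshold. Changes over the 27 Slc7a probe sets lay between -0.17 and 0.99 in ARG, the upper end being Slc7a5.

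Of the cationic amino acid carriers, Slc7a1 (CAT-1), which brings in arginine and lysine, rose in ARG. At 1454992_at its ratios were 1.12, 1.32 and 1.56 in ARG hearts, against 0.724, 1.07 and 1.23 in NTG hearts. GLY hearts had 1.15, 1.22 and 1.58, and AC5 hearts 0.831, 1.02 and 1.18. ARG and NTG values overlapped, since NTG replicates 2 and 4 lay above the lowest ARG heart. The change of Slc7a1 was 0.44 ± 0.12 in ARG (1.36-fold, limma adjusted p = 0.0185), 0.36 ± 0.12 in GLY (adjusted p = 0.0820) and 0.04 ± 0.12 in AC5 (adjusted p = 0.984). The call in ARG was lost without NTG replicate 3 (0.37, adjusted p = 0.0630) or NTG replicate 6 (0.35, adjusted p = 0.0633), with quantile normalization (0.43, adjusted p = 0.141) and within replicates 4 to 6 (0.28, adjusted p = 0.364). The other 2 probe sets of Slc7a1 changed by 0.19 and 0.16 and were not called.

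Among sodium-coupled carriers of small neutral amino acids, Slc38a2 (SNAT2) takes up alanine and glutamine and responds to amino acid shortage in other cells. Its probe set 1426722_at differed most between the receptor forms among the members. At 1426722_at its ratios were 0.905, 1.44 and 1.87 in ARG hearts and 0.570, 0.787 and 1.01 in GLY hearts. AC5 hearts had 0.980, 1.06 and 1.13, and NTG hearts 0.906, 1.00 and 1.07. In ARG 5 of 6 hearts lay above every GLY, AC5 and NTG heart, and ARG replicate 1 lay among them. Slc38a2 rose by 0.51 ± 0.14 in ARG against NTG (1.42-fold, limma adjusted p = 0.0182) and was higher in ARG than in GLY by 0.84 ± 0.14 (1.79-fold, adjusted p = 0.00156). In GLY against NTG the change was -0.33 ± 0.14 (adjusted p = 0.181), and in AC5 0.11 ± 0.14 (adjusted p = 0.947).

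The rise of Slc38a2 in ARG against NTG was lost without ARG replicate 2 (0.42, limma adjusted p = 0.0585), without ARG replicate 6 (0.44, adjusted p = 0.0513) and within replicates 1 to 3 (0.41, adjusted p = 0.467). The difference between ARG and GLY was lost when only these genotypes were fitted (adjusted p = 0.0739) and within replicates 1 to 3 (0.87, adjusted p = 0.0947), and was 0.81 within replicates 4 to 6. The other 2 Slc38a2 probe sets changed by 0.00 and -0.08 in ARG against NTG and were not called, so the probe sets of this gene disagreed. Nor did they show the difference between ARG and GLY. Mean log2 ratios were -0.008 in ARG and 0.004 in GLY at 1429593_at, and -0.15 and -0.03 at 1429594_at.

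Slc38a1 (SNAT1), a glutamine carrier of the same family, rose in ARG at both of its probe sets. At 1454764_s_at its ratios were 1.18, 1.30 and 1.37 in ARG hearts, against 0.861, 0.927 and 1.21 in NTG hearts, and its change was 0.45 ± 0.14 (limma adjusted p = 0.0441). NTG replicate 2 was the single NTG heart inside the ARG range. GLY hearts had 0.660, 1.04 and 1.34 there, and AC5 hearts 0.846, 1.19 and 1.49. At 1415903_at the change of Slc38a1 was 0.23 ± 0.08 (adjusted p = 0.0490), with ratios of 1.06, 1.20 and 1.42 in ARG hearts against 0.947, 1.01 and 1.17 in NTG hearts. Both calls lay near the threshold. Leaving out 1 heart ended that of 1454764_s_at for 10 of the 12 ARG and NTG hearts (ARG replicate 3 and NTG replicate 2 were the exceptions), with an adjusted p up to 0.0976. It ended that of 1415903_at for NTG replicates 1, 2, 3, 4 and 6 and ARG replicates 1, 3, 4, 5 and 6, with an adjusted p up to 0.125. Quantile normalization ended both (0.38 and 0.17, adjusted p = 0.196 and 0.327). Within replicates 1 to 3 and 4 to 6 the change of Slc38a1 was 0.36 and 0.54 at 1454764_s_at (adjusted p = 0.497 and 0.00717) and 0.28 and 0.18 at 1415903_at (adjusted p = 0.267 and 0.422). The call of 1415903_at was also lost in a fit of ARG and NTG only (adjusted p = 0.0818), without the 3 arrays of lowest weight (0.18, adjusted p = 0.109), among probe sets with no suffix before _at (adjusted p = 0.0545) and with robust moderation (adjusted p = 0.0514). The glutamine carrier Slc1a5 (ASCT2), by contrast, changed by -0.24 ± 0.12 at 1440379_at and 0.07 ± 0.12 at 1416629_at in ARG (adjusted p = 0.270 and 0.844). The remaining Slc38a probe sets were not called in any of ARG, GLY or AC5 against NTG.

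The glutamate and aspartate carriers of Slc1a gave calls for Slc1a1 (EAAC1) and Slc1a2 (GLT-1). Slc1a1 (1448299_at) had ratios of 1.16, 1.37 and 1.59 in ARG hearts, against 0.866, 0.952 and 1.07 in NTG hearts. GLY hearts had 1.02, 1.23 and 1.41, and AC5 hearts 0.791, 1.19 and 1.34. Every ARG heart lay above every NTG heart. Slc1a1 rose by 0.52 ± 0.11 in ARG (1.44-fold, limma adjusted p = 0.00140), with 0.31 ± 0.11 in GLY (adjusted p = 0.0922) and 0.22 ± 0.11 in AC5 (adjusted p = 0.691). Within replicates 1 to 3 the ARG change was 0.37 (adjusted p = 0.110), and within replicates 4 to 6 it was 0.67. The other 2 Slc1a1 probe sets changed by 0.17 and 0.07 in ARG and were not called.

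Slc1a2 was the member called in both receptor lines. At 1451627_a_at its ratios were 1.20, 1.32 and 1.51 in ARG hearts and 1.17, 1.30 and 1.43 in GLY hearts, against 0.886, 1.02 and 1.19 in NTG hearts. AC5 hearts had 0.938, 1.14 and 1.20. ARG did not overlap NTG or AC5, and GLY overlapped NTG because of NTG replicate 6. Slc1a2 rose by 0.38 ± 0.08 in ARG (limma adjusted p = 0.00279) and by 0.35 ± 0.08 in GLY (adjusted p = 0.0149), and changed by 0.09 ± 0.08 in AC5 (adjusted p = 0.913). Within the sets of 3 hearts the change was 0.38 and 0.39 in ARG and 0.35 and 0.34 in GLY, none of them called. Quantile normalization gave 0.29 in ARG (adjusted p = 0.0811) and 0.28 in GLY (adjusted p = 0.176). Without GLY replicates 1 and 3 and ARG replicate 1, the arrays of lowest weight, the GLY call was lost as well (0.35, adjusted p = 0.0515). The other 4 Slc1a2 probe sets changed by -0.05 to 0.15 in ARG and were not called. Slc1a3 (GLAST), with 6 probe sets, had its lowest p in ARG at 0.20 ± 0.10 (adjusted p = 0.282).

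**Figure D2:**
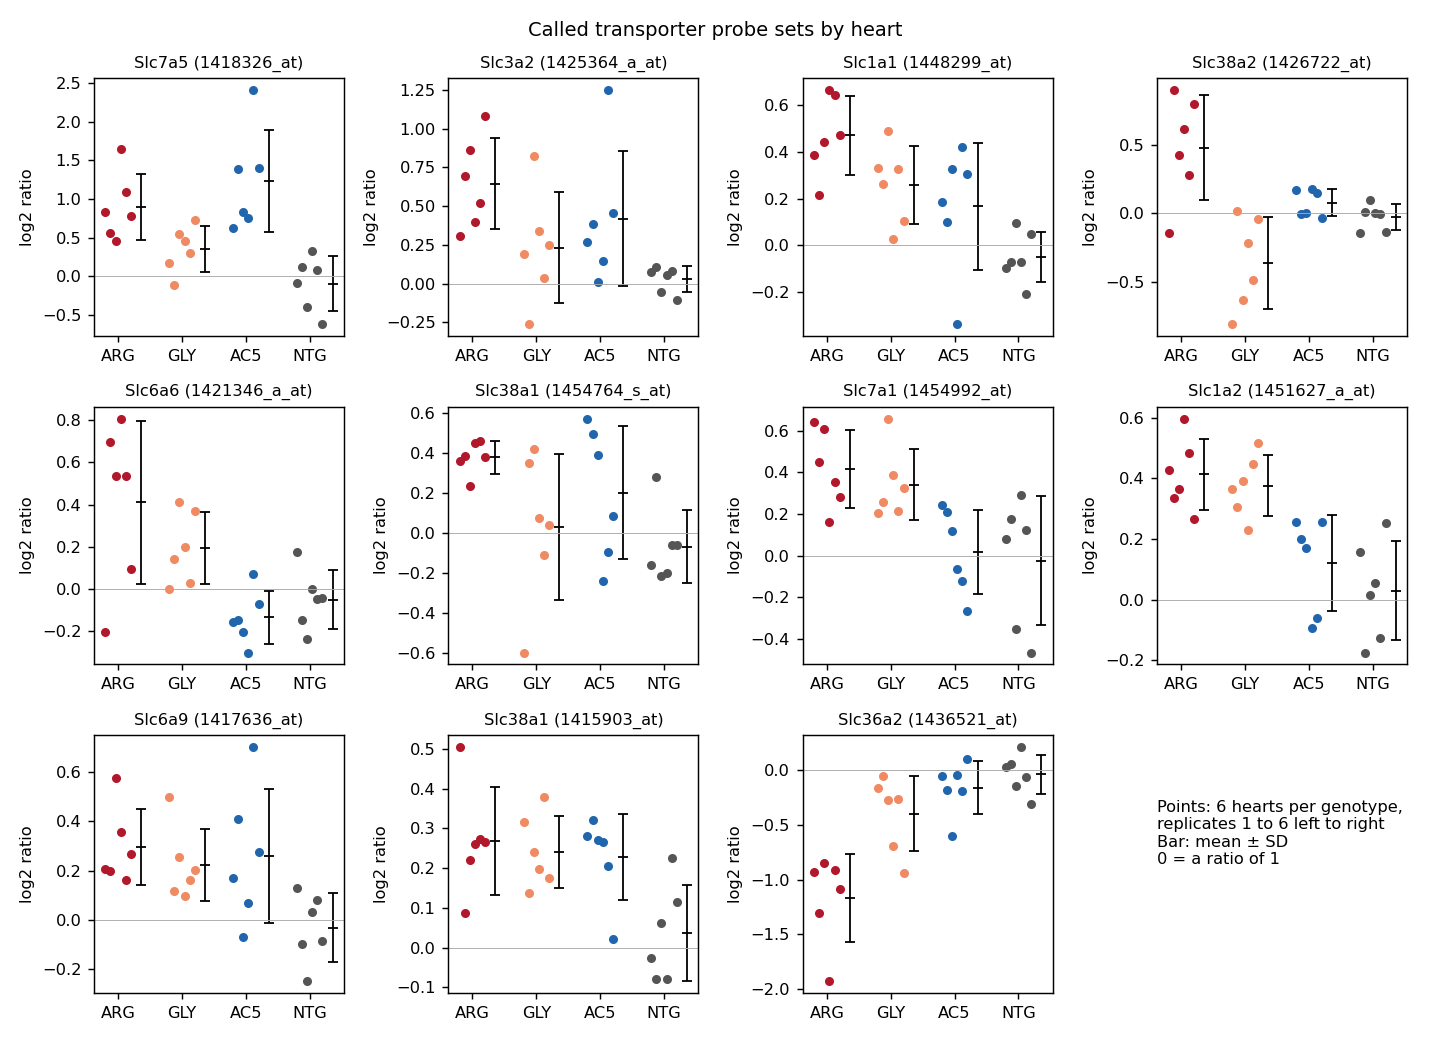
Log2 ratio (vertical axis) in each of 6 hearts of ARG, GLY, AC5 and NTG for the 11 transporter probe sets called in ARG against NTG. Points are single hearts and bars are mean ± SD. ARG lies apart from NTG for Slc7a5, Slc3a2, Slc1a1, Slc1a2, Slc6a9 and Slc36a2 and overlaps it for the others, and AC5 is highest for Slc7a5. The probe sets were chosen by calls on these same hearts, so the separation is no further test.

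Of the Slc6a family, the taurine carrier Slc6a6 and the glycine carrier Slc6a9 (GlyT1) rose in ARG. Slc6a6 (1421346_a_at) had ratios of 0.869, 1.45 and 1.75 in ARG hearts, against 0.848, 0.968 and 1.13 in NTG hearts. GLY hearts had 1.00, 1.13 and 1.33, and AC5 hearts 0.810, 0.900 and 1.05. In ARG 4 of 6 hearts were above every heart of the other genotypes, while replicates 1 and 6 were not. Slc6a6 rose by 0.46 ± 0.13 against NTG (1.38-fold, limma adjusted p = 0.0160) and was higher in ARG than in AC5 by 0.55 ± 0.13 (adjusted p = 0.00799). Without ARG replicate 4 the change against NTG was 0.38 (adjusted p = 0.0564). Within the sets of 3 hearts it was 0.41 and 0.51 (adjusted p = 0.348 and 0.0746), and the difference from AC5 was 0.51 and 0.58 there (adjusted p = 0.395 and 0.0611). The other 3 Slc6a6 probe sets changed by 0.40, 0.22 and 0.11 in ARG and were not called, the first with an adjusted p of 0.0811.

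Slc6a9 (1417636_at) had ratios of 1.12, 1.18 and 1.49 in ARG hearts, against 0.841, 0.983 and 1.09 in NTG hearts. GLY hearts had 1.07, 1.13 and 1.41, and AC5 hearts 0.954, 1.17 and 1.63. ARG and NTG did not overlap, and the change of Slc6a9 was 0.33 ± 0.11 in ARG (limma adjusted p = 0.0470), 0.25 ± 0.11 in GLY (adjusted p = 0.172) and 0.29 ± 0.11 in AC5 (adjusted p = 0.418). The ARG call was lost on leaving out any of NTG replicates 2, 3, 4, 5 and 6 or ARG replicates 2, 3, 4 and 6, with an adjusted p up to 0.131, and the other Slc6a9 probe set changed by 0.07. It was also lost with quantile normalization (0.31, adjusted p = 0.118), among probe sets with no suffix before _at (adjusted p = 0.0509) and within replicates 1 to 3 and 4 to 6 (0.40 and 0.25, adjusted p = 0.235 and 0.348). The creatine carrier Slc6a8 was not called. At 1448596_at Slc6a8 changed by 0.21 ± 0.14 in ARG (adjusted p = 0.453), and at 1417116_at by -0.01 ± 0.08 (adjusted p = 0.977). Changes of the 35 Slc6a probe sets in ARG ran between -0.04 and 0.46.

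The member that fell was Slc36a2 (PAT2), a proton-coupled carrier of glycine, alanine and proline. At 1436521_at, its single probe set, the ratios were 0.263, 0.498 and 0.555 in ARG hearts, against 0.808, 0.989 and 1.16 in NTG hearts. GLY hearts had 0.521, 0.830 and 0.966, and AC5 hearts 0.657, 0.922 and 1.07. Every ARG heart lay below every AC5 and NTG heart, and GLY replicate 6 reached into the ARG range. Slc36a2 fell by 1.13 ± 0.16 in ARG on the log2 scale (limma adjusted p = 2.22e-05), to 0.457 of the NTG level. It changed by -0.36 ± 0.16 in GLY (adjusted p = 0.213) and by -0.13 ± 0.16 in AC5 (adjusted p = 0.944).

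At Slc36a2 ARG hearts had 0.498 of the AC5 level on average (limma adjusted p = 2.30e-04). Against GLY the change in ARG was -0.77 ± 0.16 (adjusted p = 0.0107). The calls against NTG and AC5 held in all 22 alternatives run. Within the sets of 3 hearts the change of Slc36a2 against NTG was -1.01 and -1.25, and that against AC5 -0.75 and -1.26, called in each. The difference from GLY was lost with quantile normalization (-0.52, adjusted p = 0.337), in a fit of these genotypes only (adjusted p = 0.125) and within replicates 4 to 6 (-0.68, adjusted p = 0.314). Slc36a1, Slc36a3 and Slc36a4, of the same family, were not called. Slc36a2 is also known in mice as a surface marker of brown fat cells. In ARG against NTG, the fat cell marker Adipoq fell by 0.91 ± 0.24 on the log2 scale and Dio2, an enzyme that activates thyroid hormone, rose by 0.72 ± 0.13, while the other 7 of 10 probe sets of white and brown fat cell markers were not called. The mean log2 ratio of that list ran between -0.04 and 0.13 in ARG hearts and between -0.05 and 0.06 in NTG hearts, and its part in the fall of Slc36a2 was not tested.

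The Slc43a family gave no call in any comparison. Slc43a1 (LAT3), a carrier of branched-chain amino acids and phenylalanine, changed by 0.05 ± 0.11 in ARG, 0.20 ± 0.11 in GLY and -0.02 ± 0.11 in AC5 (limma adjusted p = 0.881, 0.346 and 0.991). Over the 5 Slc43a probe sets the changes lay between -0.08 and 0.15 in ARG.

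**Figure D3:**
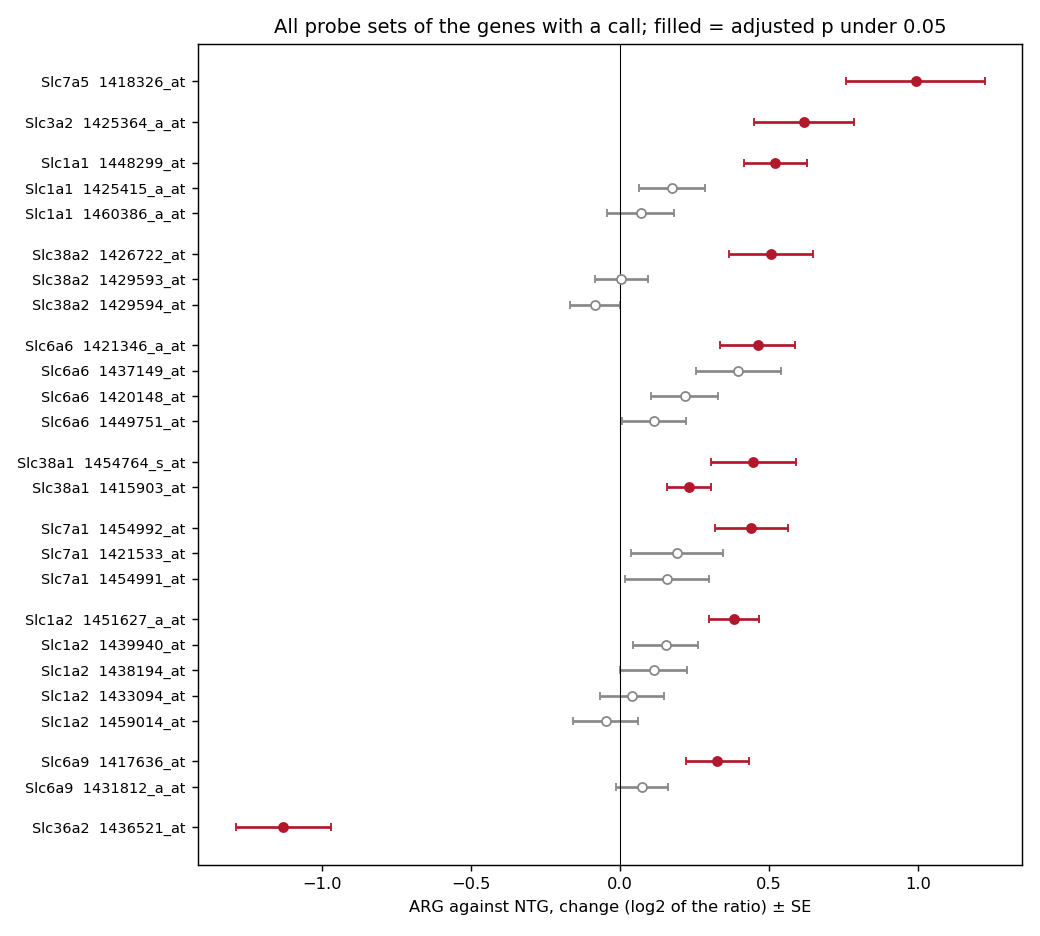
Change in ARG against NTG on the log2 scale ± SE (horizontal axis) for every probe set of the 10 transporter genes with a call, filled where the adjusted p was under 0.05. Of the genes with more than 1 probe set, Slc38a1 alone has all of them filled, and the uncalled probe sets of Slc38a2 lie at 0.00 and -0.08 beside the called one at 0.51.

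Between the receptor forms, 2 member probe sets were called, 1 higher in ARG (Slc38a2) and 1 lower (Slc36a2). Over all probe sets 0.793% were higher and 0.713% lower in ARG than in GLY. At 0.826% each, the members' shares were near the background. Without ARG replicate 1, which had a low array weight, 4 were called. Between ARG and AC5, Slc6a6 and Slc1a2 were higher and Slc36a2 lower (1.65% and 0.826% of members), where 2.52% of all probe sets were higher and 2.41% lower. The Slc1a2 difference was 0.29 ± 0.08 (limma adjusted p = 0.0395), with 0.17 and 0.42 within the sets of 3 hearts, and it was lost in 14 of 21 alternatives, among them leaving out ARG replicate 1, 3, 4 or 5 or AC5 replicate 2, 3, 4 or 5. Without AC5 replicate 1, ARG replicate 1 or ARG replicate 6 the count of 3 was 5, 6 and 5. Between GLY and AC5, 0 member probe sets were called by limma, against 0.693% of all probe sets. At an unadjusted p under 0.05, 10 were higher and 6 lower in GLY, together 13.2% of members beside 11.8% of all probe sets. After adjustment, 1 was called on leaving out GLY replicate 1, 2 or 6. The lowest change there was that of Slc7a5 (-0.89 ± 0.23, adjusted p = 0.0744).

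Within replicates 1 to 3 and within replicates 4 to 6, each of the 11 probe sets called in ARG against NTG changed in the same direction as over all 6 hearts. Slc36a2 was called in both sets. Slc7a1 was called in replicates 1 to 3 alone of the 2 (0.60, limma adjusted p = 0.0464). Slc7a5, Slc1a1, Slc38a2 and the probe set 1454764_s_at of Slc38a1 were called in replicates 4 to 6 (adjusted p = 0.0430, 0.0253, 0.0180 and 0.00717). Since the same hearts make up the whole fit, these values show where the change lay and are no independent test.

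**Figure D4:**
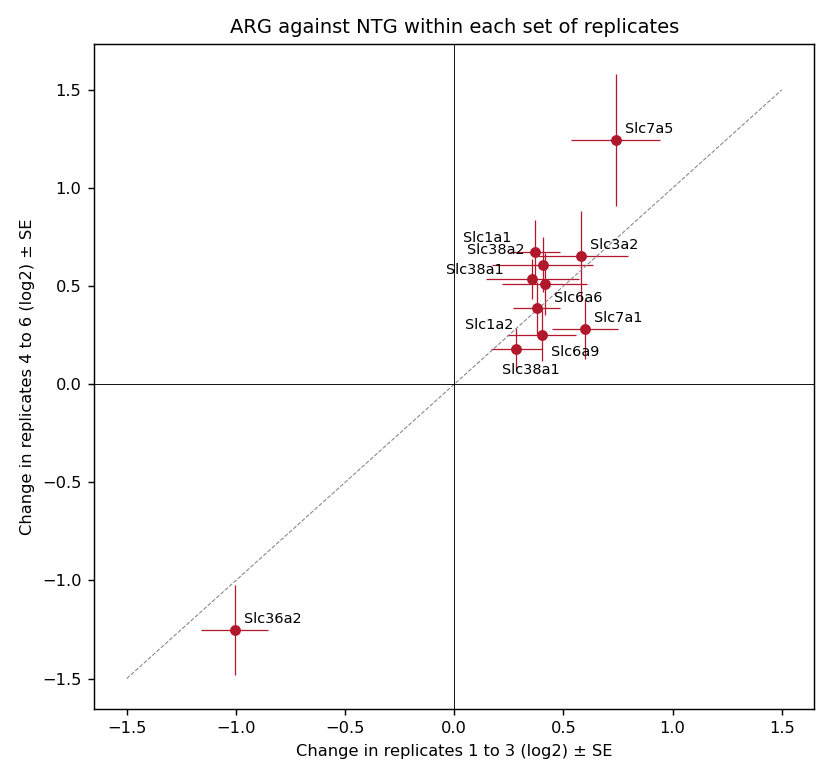
Change in ARG against NTG within replicates 1 to 3 (horizontal axis) and within replicates 4 to 6 (vertical axis), log2 scale ± SE, for the 11 called transporter probe sets. The dashed line marks equal change; Slc36a2 lies at -1.01 and -1.25, and Slc7a5 at 0.74 and 1.24.

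Genes that act with these transporters were counted from lists. Beside the counts of these lists and of the cell type lists below, 4.04% of all probe sets rose and 5.63% fell in ARG against NTG. The shares were 1.55% and 3.53% in GLY, and 0.0688% and 0.0733% in AC5. No list was tested as a set. Of 53 probe sets of the amino acid response and ATF4 targets, 18 rose and 10 fell in ARG against NTG (median change 0.19), 12 rose and 0 fell in AC5 (0.14), and 1 rose and 3 fell in GLY (-0.02). These 53 probe sets cover 22 genes, so the counts are not of genes. All AC5 rises were of Aldh18a1, Phgdh, Mthfd2 and Asns. All ARG falls were of Stc2, Vldlr, Shmt2, Ddit4 and Eif4ebp1. The median of this list within replicates 1 to 3 and 4 to 6 was 0.05 and 0.28 in ARG, 0.09 and 0.26 in AC5, and 0.00 and -0.04 in GLY, so it lay higher in replicates 4 to 6 in ARG and AC5. Asns, the asparagine synthetase, rose by 2.06 ± 0.34 in ARG and by 3.69 ± 0.34 in AC5, and Slc7a5 was called in these genotypes too. Asns was not called in GLY against NTG. At this probe set GLY lay below AC5 by less than AC5 lay above NTG, so the GLY mean of Asns was above NTG. The GLY mean of Slc7a5 was also above NTG without a call. The shared calls therefore depend on the threshold, and a link between Asns and Slc7a5 was not tested. Stc2, a secreted glycoprotein, fell by 1.52 ± 0.11 on the log2 scale in ARG. In ARG against GLY, 5 of the 53 were higher and 3 lower (median 0.15), beside 0.793% higher and 0.713% lower over all probe sets. Chac1, a glutathione-degrading enzyme, was higher by 1.10 ± 0.21. The 3 lower probe sets were all of Stc2, by up to 1.27 ± 0.11 on the log2 scale. Without members of the transporter families in it, this list is separate from the 121 probe sets, but it is read from the same arrays.

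Of 37 probe sets of branched-chain amino acid breakdown, 1 rose and 18 fell in ARG (median -0.42), 0 rose and 16 fell in GLY (-0.31), and 0 rose and 3 fell in AC5 (-0.13). Its median within replicates 1 to 3 and 4 to 6 was -0.40 and -0.38 in ARG, -0.35 and -0.18 in GLY, and -0.23 and -0.09 in AC5. Ivd, an enzyme of leucine breakdown, fell by 1.70 ± 0.12 in ARG and by 1.27 ± 0.12 in GLY on the log2 scale. Bcat1, the cytosolic transaminase, rose by 0.73 ± 0.10 in ARG. Of 72 probe sets of nutrient sensing by mTORC1, 3 rose and 5 fell in ARG, 2 rose and 6 fell in GLY and 0 were called in AC5. Over all probe sets 4.04% rose and 5.63% fell in ARG, and 1.55% rose and 3.53% fell in GLY. Sesn1, an inhibitor of mTORC1, fell by 0.79 ± 0.11 in ARG and by 0.79 ± 0.11 in GLY on the log2 scale. Of 29 probe sets of creatine, taurine and arginine metabolism, 2 rose and 1 fell in ARG, 1 rose in GLY and 0 were called in AC5. Cdo1, which starts taurine synthesis from cysteine, rose by 1.68 ± 0.24 in ARG and by 1.28 ± 0.24 in GLY. Of 31 probe sets of glutamine, glutamate and glutathione enzymes, 2 rose and 3 fell in ARG, 1 rose and 2 fell in GLY and 0 were called in AC5. Of 31 probe sets of accessory proteins and neighbouring carriers, 1 rose and 3 fell in ARG, 1 rose and 1 fell in GLY and 0 were called in AC5.

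Markers of several cell types moved in ARG hearts, and some endothelial and heart muscle markers also fell in GLY hearts. In whole hearts, fewer cells of a type and less RNA per cell cannot be told apart. Of 26 macrophage probe sets 14 rose and 0 fell in ARG (median 0.56, and 0.42 and 0.70 within replicates 1 to 3 and 4 to 6), with a mean log2 ratio per heart of 0.19 to 0.85 in ARG and -0.10 to 0.04 in NTG. Of 26 fibroblast probe sets 10 rose and 5 fell (0.02 to 0.52 in ARG, -0.14 to 0.01 in NTG). Of 27 endothelial probe sets 0 rose and 11 fell (-0.55 to -0.24 in ARG, -0.08 to 0.03 in NTG), and 7 of 28 heart muscle probe sets fell (-0.25 to -0.05 in ARG, -0.10 to 0.05 in NTG). Smooth muscle and pericyte markers had 1 rise and 1 fall among 20 probe sets, nerve and glia markers 2 rises among 18, and lymphocyte and red blood cell markers 0 calls among 14 and 8. Slc7a7, a light chain abundant in macrophages, changed by 0.37 ± 0.13 in ARG (limma adjusted p = 0.0745). In GLY, 1 macrophage probe set, of Cd163, fell, while the median of that list was 0.12, beside 0.03 over all probe sets. Its mean log2 ratio per heart was -0.25 to 0.45 in GLY. Also in GLY, 9 endothelial and 4 heart muscle probe sets fell, and 1 each of the lymphocyte, nerve and smooth muscle lists rose. The mean log2 ratio per GLY heart was -0.45 to -0.17 for endothelial markers and -0.36 to 0.02 for heart muscle markers. In AC5, where 0.0688% of all probe sets rose and 0.0733% fell on the whole array, 0 probe sets of the 9 marker lists were called. Fibroblast markers had a mean log2 ratio of -0.35 to -0.14 in AC5 hearts (-0.14 to 0.01 in NTG), and endothelial markers one of -0.35 to -0.08 in AC5 hearts (-0.08 to 0.03 in NTG). Macrophage markers ran between -0.18 and 0.12 in AC5 hearts. The part of these cell types in the transporter changes of ARG, GLY and AC5 was not tested.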

How the data were processed

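The authors deposited 1 table of linear ratio values per probe set and array. RMA is named as the tool per the submitters' processing notes, with its version not given in the sources used here. Division by the control level is not stated and was read from the values. RNA was extracted with Trizol and labelled with biotin, per the labels' protocols.

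Of 45101 probe sets, 64 Affymetrix controls were left out. Log2 of the ratio was fitted with limma 3.58.1 in R 4.3.3 over all 24 arrays, with 1 mean per genotype, 20 residual degrees of freedom and Benjamini-Hochberg adjustment over 45037 probe sets. No filter on brightness was possible. The median SE in ARG against NTG was 0.0992, which depends on the moderated spread between hearts and on the number of arrays. Probe sets were named from the platform annotation, and all 121 members matched by Entrez identifier. The fit was run on simulated data with independent normal noise and, for each probe set, the same spread in every genotype. This does not cover the unequal spread of the genotypes or the sets of replicates.

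Members and 15 gene lists (209 of 229 genes matched) were chosen with earlier results of these data known, the fat cell list last, after the members' values were seen. Member genes called in ARG, GLY or AC5 against NTG or ARG against GLY were named, with 11 named whatever their values. Of several probe sets, that with the lowest p is given. Alternatives were normalization, replicate block, sets of replicates, array weights, probe set type, robust moderation and leaving out arrays. Plots used Python 3.11.15 and matplotlib 3.10.9.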

Additional observations from a re-analysis of the deposited data

Results flagged for a closer look

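Of 64 groups of 6 hearts tested with Dixon's criterion (16 named probe sets in 4 genotypes), 3 held a heart that stood apart, and chance marks about 1 group in 20. Slc3a2 (1425364_a_at) had a log2 ratio of 1.25 in AC5 replicate 5, against 0.45 in the next AC5 heart. Slc6a8 (1448596_at) had 0.23 in the same heart, AC5 replicate 5, against -0.07 in the next. Slc38a1 (1454764_s_at) had 0.28 in NTG replicate 2, against -0.06 in the next NTG heart.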

How the results depend on the processing

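None of the 18 calls of named probe sets changed direction under the alternatives run, and the calls that were lost are given with the results, apart from those under the replicate block, given here. Counts of called member probe sets moved by over 1.5 times as follows. With quantile normalization ARG against NTG gave 5 (11 as reported), GLY against NTG 0 (1 as reported), ARG against GLY 1 (2 as reported) and GLY against AC5 1 (0 as reported). Within replicates 1 to 3 alone ARG against NTG gave 2, AC5 against NTG 0 (1 as reported), ARG against GLY 1 and ARG against AC5 1 (3 as reported). Within replicates 4 to 6 alone ARG against NTG gave 7, GLY against NTG 0 and AC5 against NTG 0. With these sets as a term ARG against AC5 gave 5 and GLY against AC5 1. A fit of the 2 genotypes compared gave 0 in ARG against GLY. Array weights gave 5 in GLY against NTG and 5 in ARG against AC5. Without GLY replicates 1 and 3 and ARG replicate 1, the arrays of lowest weight (0.354, 0.312 and 0.478), GLY against NTG gave 0 and ARG against AC5 6. Leaving out probe sets with a suffix such as _s_at gave 5 for ARG and 0 for GLY, each against NTG, and 1 for ARG against AC5. For ARG against NTG, 4 of the 11 called probe sets carry such a suffix, while Slc38a1 (1415903_at) and Slc6a9 stayed in and lost their call. Leaving out 1 heart gave 7 to 12 calls for ARG, 1 to 4 for GLY and 1 throughout for AC5, each against NTG, then 2 to 4 for ARG against GLY, 2 to 6 for ARG against AC5 and 0 to 1 for GLY against AC5. The cause of these shifts was not tested further. Over all probe sets, GLY against NTG gave 2286 calls and 633 with quantile normalization.

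With the replicate number as a block the count against NTG was 11 for ARG, 2 for GLY and 1 for AC5, and it was 2 for ARG against GLY, 6 for ARG against AC5 and 0 for GLY against AC5. In ARG against NTG the block ended the calls of Slc38a1 1415903_at (adjusted p = 0.0501) and Slc6a9 (adjusted p = 0.0649), and 2 other member probe sets were called; it ended no other call of a named probe set. Correlations of same-numbered deviations ran from -0.05 to 0.02 in ARG against NTG, -0.29 to 0.14 in GLY against NTG, -0.24 to 0.19 in AC5 against NTG and -0.08 to 0.32 in GLY against AC5. They ran from 0.05 to 0.49 in ARG against GLY and -0.07 to 0.21 in ARG against AC5, with 5 of 6 over 0.1 in each. In no comparison were all 6 over 0.1, so the numbers were not taken as pairs, though in ARG against GLY 3 of 6 hearts correlated best with their own number. The fit shares 1 spread over genotypes, though NTG varied less than ARG and GLY. Signal over background is unknown.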
